A study of Mus musculus with 12 samples.

Results

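Cytochrome P450 genes were followed in mouse kidneys 24 h after ischemia-reperfusion injury (IRI), an operation that stops and then restores renal blood flow. A gene was taken when its name on the array had the form Cyp, a family number, letters and a final number, with Cyp24a1 and Cyp27b1 left out. The array carried 90 such genes, and 63 of them passed a filter that asked for signal well above background on 3 or more of 12 arrays, out of 25947 genes of all kinds that passed it. Names that end in a letter, such as Cyp4a12a and Cyp3a41a, and names without that form, such as Cyp51 and Tbxas1, were outside the rule.

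The samples were kidneys of male mice in 4 groups of 3, which are Jaml knockout (KO) mice after IRI, KO mice after a sham operation, wild-type (WT) mice after IRI and WT mice after a sham operation. The mice are described as of C57/6J background, and no age is stated. The series text gives 40 min of clipping of both renal pedicles and the protocol text a shorter ligation, so the length of ischemia is not settled. Jaml, which encodes a junctional adhesion molecule-like protein of leukocytes, was knocked out, and the labels name no tissue-specific driver. All WT arrays lay on 1 slide and all KO arrays on another, so genotype and slide cannot be told apart, whereas IRI and sham of a genotype shared a slide.

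Cytochrome P450 enzymes are haem proteins that insert an oxygen atom into their substrates and are grouped by sequence into numbered families. Families 1 to 3 oxidise drugs and other foreign compounds, and their Cyp2c and Cyp2j members also turn arachidonic acid into epoxides that widen blood vessels. Family 4 members hydroxylate the tail of fatty acids, and in the kidney some Cyp4a enzymes make a constrictor of small vessels from arachidonic acid. The higher families act on sterols, steroids, vitamin D and retinoic acid, and most renal P450 is found in the proximal tubule.

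The promoter windows of 3 neighbouring genes are shown here because they carry the steepest change described below: Cyp2b9 and Cyp2b10 rose after IRI in both genotypes, whereas Cyp2b13 passed the test in neither. Each window runs from 250 bases before to 50 bases after the gene's start and comes from RefSeq on GRCm38.p6, plus strand, at chr7:26173159-26173458 (Cyp2b9), chr7:26061245-26061544 (Cyp2b13) and chr7:25897408-25897707 (Cyp2b10). Capitals mark the 2 of 300 positions at which the Cyp2b9 and Cyp2b13 windows differ, 203 and 147 bases before the start.
Cyp2b9: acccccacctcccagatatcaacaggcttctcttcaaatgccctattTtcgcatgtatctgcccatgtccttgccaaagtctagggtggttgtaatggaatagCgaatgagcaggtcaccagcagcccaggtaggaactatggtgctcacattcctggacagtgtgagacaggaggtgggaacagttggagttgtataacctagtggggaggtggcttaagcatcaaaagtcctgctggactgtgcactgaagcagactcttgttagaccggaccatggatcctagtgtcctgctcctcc
Cyp2b13: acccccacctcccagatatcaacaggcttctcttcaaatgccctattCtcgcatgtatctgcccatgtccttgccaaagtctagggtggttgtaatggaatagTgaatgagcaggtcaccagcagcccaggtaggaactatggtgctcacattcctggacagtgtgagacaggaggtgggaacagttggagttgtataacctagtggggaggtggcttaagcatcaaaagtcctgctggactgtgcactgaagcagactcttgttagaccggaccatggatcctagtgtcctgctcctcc
Cyp2b10: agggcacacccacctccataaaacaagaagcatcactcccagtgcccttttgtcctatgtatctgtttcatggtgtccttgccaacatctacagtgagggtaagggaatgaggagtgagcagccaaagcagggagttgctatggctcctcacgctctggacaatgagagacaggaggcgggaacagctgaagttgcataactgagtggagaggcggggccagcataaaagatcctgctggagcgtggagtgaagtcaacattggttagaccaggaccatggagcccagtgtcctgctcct
The Cyp2b9 and Cyp2b13 windows were identical at 298 of 300 bases (99.3%). Aligned to either of them, the Cyp2b10 window had 223 identical bases (74.3% of the window). The letters AGGTCA, to which many nuclear receptors bind, were searched on both strands and occurred once in the Cyp2b9 window and once in the Cyp2b13 window, and were not in the Cyp2b10 window. They were in 16.3% of the 32851 RefSeq windows of this length and in 10 of the 48 windows found for the 63 P450 genes (20.8%). The core GCGTG of the aryl hydrocarbon receptor's site, searched in the same way, was in the windows of Cyp1a1 and Cyp2b10, in 14 of those 48 (29.2%) and in 32.4% of all windows.

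Of the 90 genes, 56 were well above background on all 12 arrays, 7 on 3 to 11 arrays and 27 on fewer than 3. Family 2, the largest, had 38 of 48 genes past the filter, and family 4 had 13 of 16. Family 3, the main drug-oxidising family of liver, had only Cyp3a13 of 7 genes. The 27 genes below the filter included Cyp7a1 and Cyp8b1, which make bile acids in hepatocytes. They also included Cyp11a1, Cyp11b1 and Cyp11b2, the steroid-making enzymes of the adrenal cortex, and 19 of the 27 were well above background on no array. Of the marker lists, all 23 proximal tubule genes passed the filter, as did 13 of 15 hepatocyte genes and 11 of 15 adrenal cortex genes, so passing it does not separate these tissues.

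Signal was well above background for 62.9% to 68.1% of 56605 probes per array and no probe was saturated. Correlations between arrays of a group ran from 0.968 to 0.995. The targeted gene Jaml was well above background on all 12 arrays, and its level ran from -3.0 to -1.89 in KO IRI against -1.80 to 0.55 in WT IRI, and from -3.54 to -2.59 in KO sham against -0.44 to -0.26 in WT sham. Here and below a level is the log2 processed signal of the gene's brightest probe minus the 75th percentile of its array, and a difference of levels is a log2 fold change, given with its standard error (SE, n = 3 per group) from a limma fit over all 12 arrays. Adjusted p-values are limma's, two-sided and Benjamini-Hochberg adjusted over 25947 genes, with a threshold of 0.05. Levels of different probes are not comparable, so genes are compared only by their differences. In several P450 genes a pair of WT arrays stood apart. These were WT sham replicate 3, whose Cyp2b and Cyp4a levels lay nearer to the IRI arrays than those of the other WT sham arrays, and WT IRI replicate 1, which was low in Cyp2a22 and Cyp1a1 and high in Cyp3a13.

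After IRI, P450 genes moved in both directions. In KO kidneys 9 of 63 genes were higher and 10 lower than in KO sham (30.2% called, against a background of 6.16% of all genes, of which 2.10% higher and 4.05% lower). In WT kidneys 10 were higher and 6 lower than in WT sham (25.4%, against a background of 12.0%, of which 6.08% higher and 5.90% lower). With arrays scaled on their median, 9 genes were higher and 5 lower in KO, and 9 were higher and 3 lower in WT. The median log2 fold change of the 63 genes in the 75th percentile scaling was -0.03 in KO and -0.03 in WT, beside -0.08 and -0.01 over all genes. In both genotypes 11 genes were called, which is 57.9% of the 19 KO calls and 68.8% of the 16 WT calls, each with the same direction. They comprised 7 higher genes (Cyp2b9, Cyp2b10, Cyp2d9, Cyp2d13, Cyp2d22, Cyp2d34 and Cyp4a10) and 4 lower genes (Cyp2c29, Cyp2c44, Cyp2c68 and Cyp2j11), and 55 of the 63 genes had estimates of the same sign in both. These shares were not counted over all genes, so whether such agreement is particular to P450 genes was not tested. Without overlap between IRI and sham, 21 genes were higher and 20 lower in KO (backgrounds of 13.9% and 21.8%), and 15 were higher and 13 lower in WT (17.2% and 15.1%). KO and WT responses rest on separate arrays but share 1 estimate of the spread.

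Single arrays set how many genes passed. The KO count of 19 was 8 without KO sham replicate 1 and 11 without KO sham replicate 3. The WT count of 16 was 7 when WT sham replicate 1 was left out and 8 when either WT sham replicate 2 or WT IRI replicate 3 was. With WT IRI replicate 1 and WT sham replicate 3 both left out, a setting chosen after seeing the data, 29 genes were called in KO and 21 in WT. Cyp2b9, Cyp2b10 and Cyp2d22 stayed past the threshold in both genotypes under every alternative tried, and Cyp2c68, Cyp2c69 and Cyp2d13 did so in KO.

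**Figure D1:**
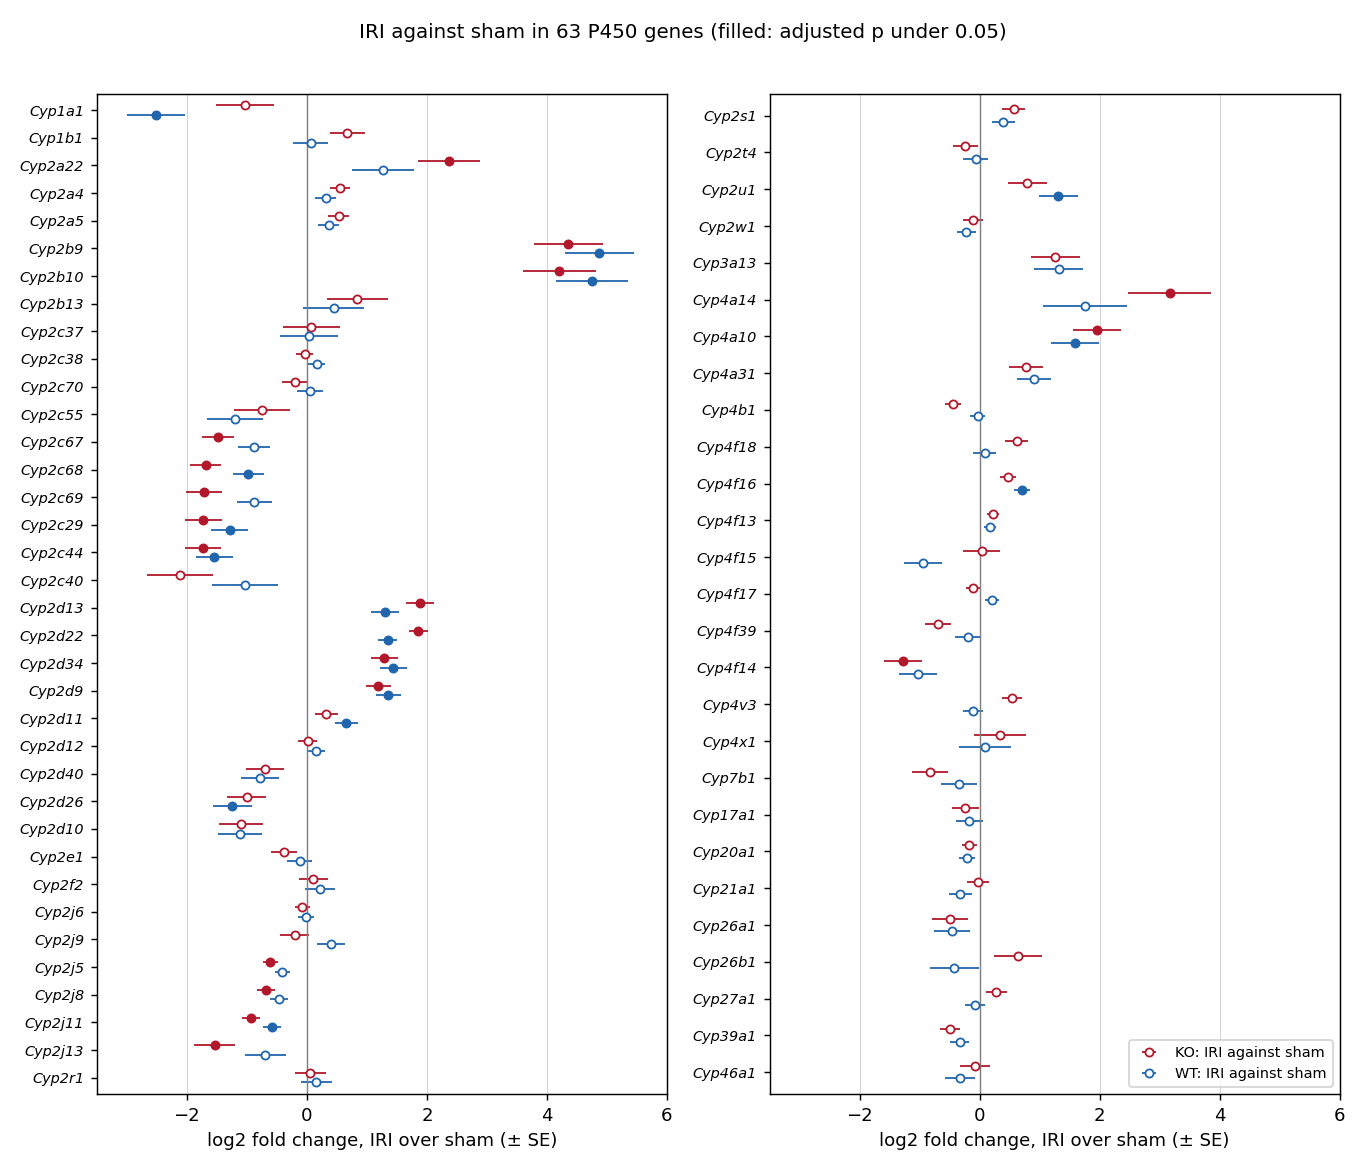
Log2 fold change of IRI over sham for each of the 63 P450 genes, with KO in red above WT in blue and bars for the standard error (n = 3 per group); filled points have an adjusted p under 0.05. Cyp2b9 and Cyp2b10 lie above 4 in both genotypes, and Cyp2c, Cyp2j and Cyp1a1 make up most of the filled points below 0.

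The Cyp2b genes encode enzymes that in mouse liver are induced by phenobarbital through the receptor CAR. Of the 3 past the filter, 2 rose in both genotypes (66.7%, beside 2.10% of all genes in KO and 6.08% in WT). These 2, Cyp2b9 and Cyp2b10, had the largest rises among the 63 genes. The level of Cyp2b9 was 0.32, 0.78 and 0.83 in the KO IRI kidneys and -3.31, -4.13 and -3.70 in the KO sham kidneys. It was -0.41, -0.73 and 1.60 in the WT IRI kidneys and -5.25, -5.12 and -3.79 in the WT sham kidneys. In both genotypes every IRI kidney lay above every sham kidney. The difference was 4.36 ± 0.58 in KO (20.5-fold, adjusted p = 0.00441) and 4.87 ± 0.58 in WT (29.3-fold, adjusted p = 0.00196).

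Cyp2b10 had levels of 1.07, 1.59 and 1.65 in KO IRI against -2.40, -3.16 and -2.76 in KO sham. In WT IRI it had 0.35, 0.06 and 2.35, against -4.21, -4.54 and -2.75 in WT sham. These groups did not overlap either, with the highest WT sham value again in replicate 3. Cyp2b10 rose by 4.21 ± 0.60 in KO (18.5-fold, adjusted p = 0.00529) and by 4.76 ± 0.60 in WT (27-fold, adjusted p = 0.00248). Without WT sham replicate 3 the WT differences were 5.34 for Cyp2b9 and 5.30 for Cyp2b10.

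The third Cyp2b gene past the filter, Cyp2b13, has a promoter window that differs from that of Cyp2b9 at the 2 capital positions above. Its probe was well above background on 3 KO IRI arrays, 1 KO sham array and no WT array. Its level was -5.04, -5.73 and -5.85 in KO IRI and -7.24, -5.76 and -6.15 in KO sham, so the groups overlapped, and the test was not passed (0.84 ± 0.51, adjusted p = 0.385). In WT it was not well above background in either group and no fold is given. The chosen probes of Cyp2b9, Cyp2b10 and Cyp2b13 were slid along each other without gaps. No pair was at least 80% identical over a whole overlap of 25 or more bases, and alike runs inside a poorer overlap were not searched for. Probes were compared only with each other and not with transcripts of related genes, so shared signal between Cyp2b genes was not tested.

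Upstream in the pathway, Nr1i3, the gene for CAR, rose in KO (1.1 ± 0.27, adjusted p = 0.0385) and was not called in WT. Among 13 hepatocyte markers past the filter, 2 were higher and 1 lower in KO and 4 were higher in WT after IRI. These markers were called at 23.1% in KO and 30.8% in WT, beside 6.16% and 12.0% of all genes. Their mean centred level ran from -0.01 to 0.15 in KO IRI and -0.27 to -0.19 in KO sham, and from 0.11 to 0.86 in WT IRI and -0.57 to -0.09 in WT sham. Of the 13 marker estimates, 5 were above 0 and 8 below in KO (median -0.17, from -1.46 to 3.75). In WT 12 were above 0 and 1 below (median 0.62, from -0.28 to 2.37). Albumin was not among the called markers, which were higher except for 1 in KO, so it does not stand for the list. It differed by -0.49 in KO (adjusted p = 0.15) and by 0.14 in WT (adjusted p = 0.647). Cyp7a1 and Cyp8b1 did not pass the filter. The part of liver-type markers in the Cyp2b rise was not tested.

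Next to Cyp2b on the same chromosome lie the Cyp2a genes, whose liver enzymes hydroxylate coumarin and testosterone. Cyp2a22 had levels of 1.14, 1.81 and 1.66 in KO IRI against -0.89, -0.72 and -0.90 in KO sham, with no overlap. It rose in KO by 2.38 ± 0.52 (5.19-fold, adjusted p = 0.0263), a call that was lost without any 1 of 5 KO arrays (KO sham replicates 1, 2 and 3 and KO IRI replicates 2 and 3), with differences of 2.24 to 2.43 and adjusted p of 0.0698 to 0.0905. In WT it had levels of -1.25, 0.93 and 1.25 after IRI against -1.01, -0.91 and -0.95 after sham, with WT IRI replicate 1 below all sham arrays, and the difference of 1.27 ± 0.52 did not pass (adjusted p = 0.135). Without that array it was 2.04 (adjusted p = 0.000605). Cyp2a4 and Cyp2a5, a closely related pair, were called in neither genotype, with differences of 0.56 and 0.53 in KO and 0.31 and 0.36 in WT.

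**Figure D2:**
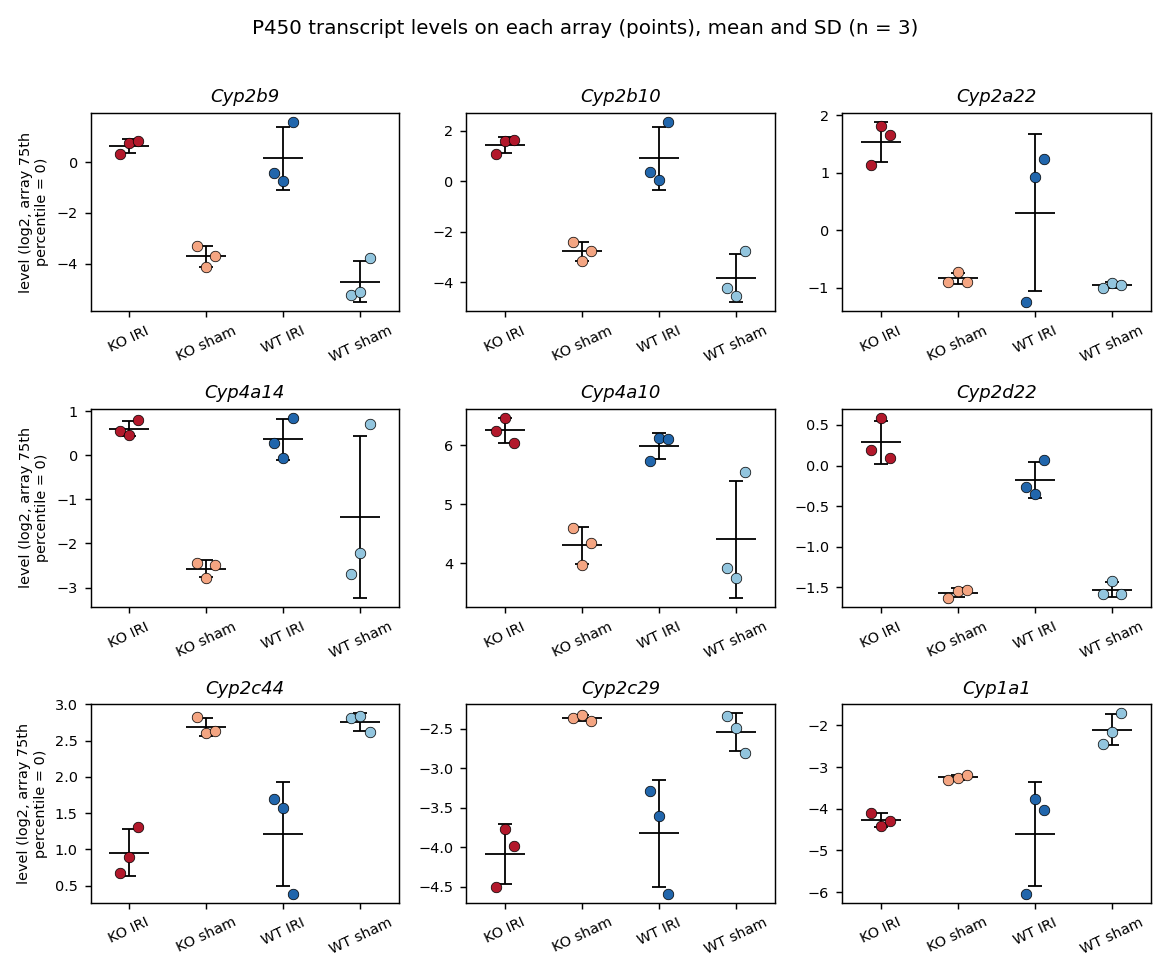
Level of 9 P450 genes on each array (points), with the group mean and SD (n = 3), for KO IRI, KO sham, WT IRI and WT sham from left to right; the axis is log2 signal relative to the array's 75th percentile. The IRI points of Cyp2b9, Cyp2b10 and Cyp2d22 lie above all sham points of their genotype and those of Cyp2c44 and Cyp2c29 below, while WT sham replicate 3 reaches the IRI range for Cyp4a14.

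Cyp4a enzymes hydroxylate fatty acids, and Cyp4a10 and Cyp4a14 are textbook targets of the fatty acid receptor PPAR alpha. Cyp4a10 had levels of 6.25, 6.47 and 6.04 in KO IRI against 4.59, 3.97 and 4.34 in KO sham. In WT IRI it had 5.73, 6.12 and 6.11, against 3.91, 3.75 and 5.55 in WT sham. No groups overlapped, though WT sham replicate 3 came close to the IRI arrays. Cyp4a10 rose by 1.95 ± 0.40 in KO (3.87-fold, adjusted p = 0.0213) and by 1.58 ± 0.40 in WT (3.00-fold, adjusted p = 0.0316). The KO call was lost without any 1 of the 6 KO arrays (1.79 to 2.10, adjusted p 0.0523 to 0.0752). The WT call was lost when 1 of 5 arrays was left out, namely WT sham replicates 1 and 2, WT IRI replicates 2 and 3 and KO sham replicate 3 (1.26 to 1.58, adjusted p 0.0514 to 0.118).

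Cyp4a14 had levels of 0.54, 0.46 and 0.79 in KO IRI and -2.44, -2.78 and -2.48 in KO sham. Its WT levels were 0.28, -0.06 and 0.85 after IRI and -2.68, -2.22 and 0.70 after sham, and only the WT groups overlapped, through WT sham replicate 3. It rose in KO by 3.16 ± 0.70 (8.96-fold, adjusted p = 0.0272), and the call was lost without any 1 of the 6 KO arrays, at nearly the same size (3.06 to 3.23, adjusted p 0.0643 to 0.086). In WT the difference of 1.76 ± 0.70 was not called (adjusted p = 0.125), whereas without WT sham replicate 3 it was 2.81 (adjusted p = 0.000605). Cyp4a31 differed by 0.77 in KO and by 0.90 in WT and was called in neither, while its other kept probe, which was not tested, differed by 2.15 in KO and by 1.54 in WT.

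Some other targets of peroxisome proliferators rose as well. Of 16 such genes outside the P450 families, 6 were higher and none lower in KO, and 4 were higher and none lower in WT. The shares higher were 37.5% in KO and 25% in WT, beside 2.10% and 6.08% of all genes. The genes that rose in KO included the acyl-CoA thioesterases Acot2 (1.81, adjusted p = 0.0281) and Acot1 (1.79, adjusted p = 0.0352). Those that rose in WT included the fatty acid carrier Fabp4 (1.40) and the peroxisomal enzyme Ehhadh (1.32). The mean centred level of the 16 genes was 0.28 to 0.56 in KO IRI against -0.84 to -0.51 in KO sham, and 0.35 to 0.83 in WT IRI against -0.81 to 0.38 in WT sham, the highest of which was again replicate 3. Fat cell markers also moved in WT, where 3 of 9, including Fabp4, which stands in both lists, were higher after IRI and their mean centred level was 0.50 to 1.95 in WT IRI against -1.98 to -0.54 in WT sham. In KO 1 of 9 was higher, with -0.55 to 0.64 in KO IRI against -0.81 to 0.95 in KO sham. The shares of fat cell markers higher were 11.1% in KO and 33.3% in WT, beside 2.10% and 6.08% of all genes. The part of fat in the rises of Cyp4a genes and peroxisome proliferator targets was not tested.

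The 9 Cyp2d genes of one chromosome 15 cluster split. In KO 4 rose and none fell, and in WT 5 rose and 1 fell. The shares were 44.4% higher in KO, and 55.6% higher and 11.1% lower in WT. Of all genes 2.10% were higher in KO, and 6.08% were higher and 5.90% lower in WT. Cyp2d22, often set beside the human drug-oxidising enzyme CYP2D6, had the smallest adjusted p of the 63 genes in both genotypes. Its level was 0.19, 0.59 and 0.09 in KO IRI against -1.63, -1.54 and -1.53 in KO sham, and -0.26, -0.35 and 0.07 in WT IRI against -1.58, -1.42 and -1.58 in WT sham. The groups were far apart relative to their spread. The rise was 1.86 ± 0.16 in KO (3.62-fold, adjusted p = 0.000775) and 1.34 ± 0.16 in WT (2.54-fold, adjusted p = 0.00174).

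Cyp2d13, Cyp2d34 and Cyp2d9 rose as well. Cyp2d13 had -2.96, -2.75 and -3.14 in KO IRI against -4.85, -4.80 and -4.86 in KO sham, and -3.52, -2.91 and -2.62 in WT IRI against -4.58, -4.40 and -3.95 in WT sham. Its differences were 1.89 ± 0.23 in KO (adjusted p = 0.0034) and 1.29 ± 0.23 in WT (adjusted p = 0.0102), while its other kept probe gave 0.23 in KO and 0.53 in WT. Cyp2d34 rose by 1.29 ± 0.23 in KO and 1.44 ± 0.23 in WT, and Cyp2d9 by 1.19 ± 0.21 in KO and 1.36 ± 0.21 in WT. Each KO call of this pair was lost without 1 array (Cyp2d34 without KO sham replicate 1, adjusted p = 0.0527, Cyp2d9 without KO sham replicate 3, adjusted p = 0.0516). Cyp2d11 rose in WT (0.66 ± 0.19, adjusted p = 0.0454) and had 0.33 in KO.

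The cluster also held genes with estimates below 0. Cyp2d26 had levels of 6.47, 6.34 and 5.24 in KO IRI against 7.20, 6.88 and 6.98 in KO sham, and 5.41, 5.71 and 4.66 in WT IRI against 6.44, 6.58 and 6.48 in WT sham. It fell in WT by 1.24 ± 0.33 (adjusted p = 0.0377) and had -1.0 ± 0.33 in KO (adjusted p = 0.11), but another kept probe of Cyp2d26 gave 0.50 in WT. The WT calls of Cyp2d26 and Cyp2d11 were each lost when any 1 of several arrays was left out, 8 for Cyp2d26 (-1.31 to -0.94, adjusted p 0.0529 to 0.113) and 9 for Cyp2d11 (0.55 to 0.75, adjusted p 0.0555 to 0.149). Cyp2d10, at -1.1 in KO and -1.11 in WT, and Cyp2d40, at -0.69 and -0.78, passed in neither genotype. Cyp2d genes are near copies of each other, so a probe may also take up signal from a neighbour. No pair of chosen Cyp2d probes, slid along each other without gaps, was at least 80% identical over a whole overlap of 25 or more bases. That comparison left out alike runs inside a poorer overlap and the neighbours' transcripts, so it cannot show whether a probe takes up a neighbour's signal.

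**Figure D3:**
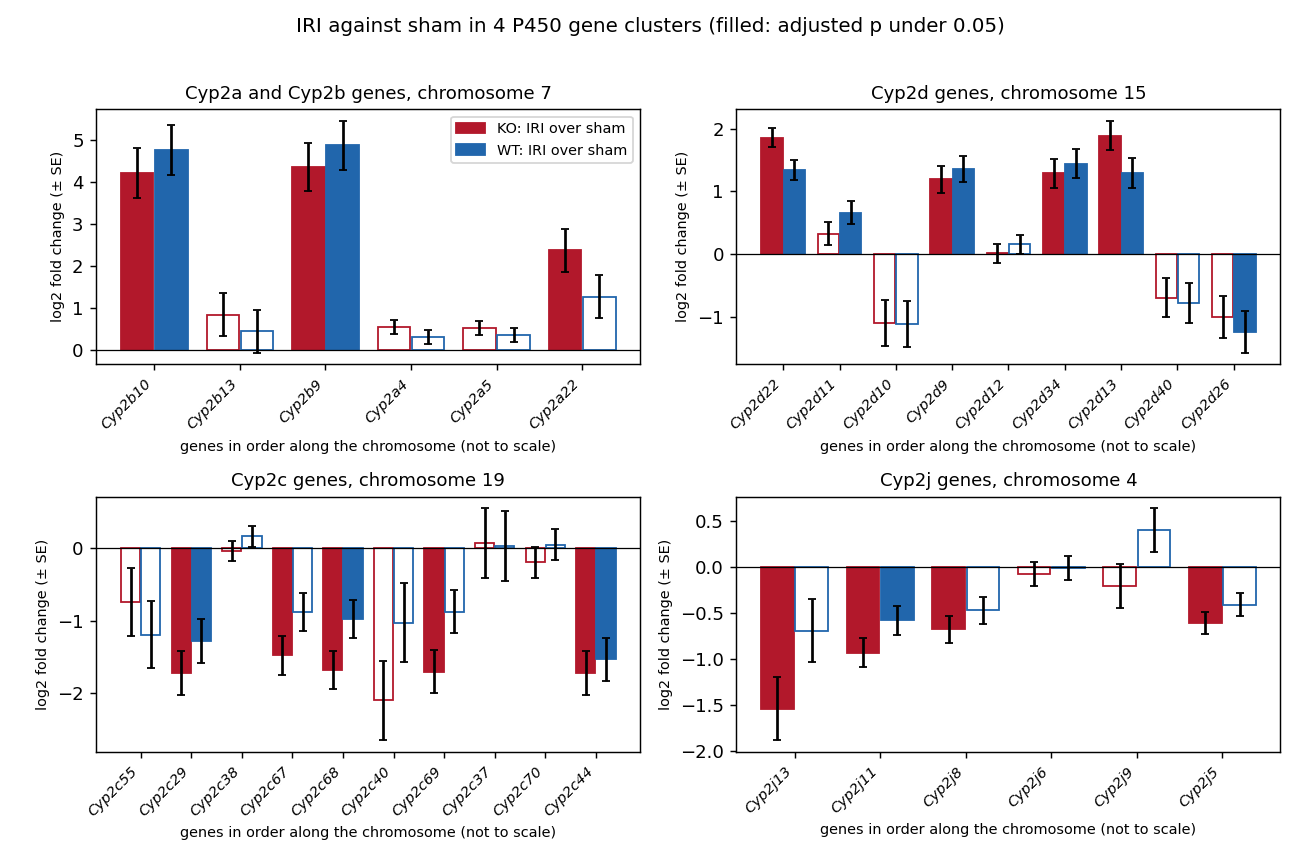
Log2 fold change of IRI over sham with its standard error for the genes of 4 chromosomal clusters, ordered along the chromosome, with KO (red) left of WT (blue) in each pair and filled bars for an adjusted p under 0.05. Called Cyp2a and Cyp2b genes are higher, called Cyp2c and Cyp2j genes are lower, and the Cyp2d cluster holds both directions in WT.

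The Cyp2c genes encode drug-oxidising enzymes and arachidonic acid epoxygenases. Of the 10 that passed the filter, 5 fell and none rose in KO, and 3 fell and none rose in WT. The shares lower were 50% in KO and 30% in WT, beside 4.05% and 5.90% of all genes. Cyp2c44, a renal epoxygenase now named Cyp2c23, had levels of 0.67, 0.89 and 1.31 in KO IRI against 2.83, 2.6 and 2.63 in KO sham. In WT it had 1.69, 1.57 and 0.39 after IRI against 2.81, 2.84 and 2.62 after sham. All 6 IRI kidneys lay below all 6 sham kidneys. Cyp2c44 fell by 1.73 ± 0.30 in KO (3.32-fold lower, adjusted p = 0.0118) and by 1.54 ± 0.30 in WT (2.91-fold lower, adjusted p = 0.0137), and the call was lost without KO sham replicate 1 in KO (adjusted p = 0.054) and without WT sham replicate 1 or 2 in WT (adjusted p 0.0552 and 0.056).

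Cyp2c29, another epoxygenase, had levels of -4.51, -3.77 and -3.99 in KO IRI against -2.36, -2.33 and -2.40 in KO sham. In WT IRI it had -3.29, -3.60 and -4.59, against -2.34, -2.49 and -2.81 in WT sham. Again no groups overlapped. It fell by 1.73 ± 0.31 in KO (adjusted p = 0.0125) and by 1.28 ± 0.31 in WT (adjusted p = 0.0256). Its KO call was lost without KO sham replicate 1 (adjusted p = 0.0526) and its WT call without WT sham replicate 1, WT sham replicate 2 or WT IRI replicate 3 (-1.26 to -0.90, adjusted p 0.0541 to 0.0948).

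Cyp2c67, Cyp2c68 and Cyp2c69 are near copies. The stretches of the chosen Cyp2c67 and Cyp2c68 probes below are shown because these probes are alike, so their signals may overlap. The 1953 pairs of the 63 probes were slid along each other without gaps. Only this pair was at least 80% identical over a whole overlap of 25 or more bases. The probes lie on mm9 at chr19:39683429-39683488 (Cyp2c67) and chr19:39763420-39763479 (Cyp2c68), each stretch is written 5′ to 3′ as in the array design, and capitals mark the bases that differ.
Cyp2c67 probe: acAcagtcccagAaattccatctatattcc
Cyp2c68 probe: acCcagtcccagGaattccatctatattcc
Aligned over 59 bases, the full probes shared 55. Cyp2c68 fell by 1.69 ± 0.26 in KO (adjusted p = 0.00703) and by 0.97 ± 0.26 in WT (adjusted p = 0.0396). Cyp2c69 fell by 1.71 ± 0.30 in KO (adjusted p = 0.0111) and had -0.88 ± 0.30 in WT (adjusted p = 0.0808). Cyp2c67 fell by 1.49 ± 0.27 in KO (adjusted p = 0.0131) and had -0.88 ± 0.27 in WT (adjusted p = 0.0581).

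For these 3 genes the WT result turned on single arrays. Without WT sham replicate 3, which was the lowest WT sham array for each of them, Cyp2c67 was at -1.17 (adjusted p = 0.0173) and Cyp2c69 at -1.20 (adjusted p = 0.0211) in WT. The WT call of Cyp2c68 was lost when any 1 of 8 arrays was left out (-0.97 to -0.82, adjusted p 0.0545 to 0.142). The KO call of Cyp2c67 was lost without KO sham replicate 1 (adjusted p = 0.0548). Cyp2c40 had the lowest KO estimate of the cluster, -2.11 ± 0.55, and stayed just short of the threshold (adjusted p = 0.0508). Its probe was well above background on 3 KO sham arrays and only 2 KO IRI arrays.

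Cyp2j enzymes also make epoxides of arachidonic acid, and Cyp2j5 is a well-known renal member. Of the 6 Cyp2j genes, 4 fell in KO and 1 in WT, and none rose. The shares lower were 66.7% in KO and, from that 1 gene, 16.7% in WT, beside 4.05% and 5.90% of all genes. Cyp2j5 had levels of 5.73, 5.83 and 5.75 in KO IRI against 6.49, 6.31 and 6.34 in KO sham. In WT it had 6.02, 5.86 and 5.72 after IRI against 6.12, 6.29 and 6.42 after sham. The groups did not overlap in either genotype. Cyp2j5 fell by 0.61 ± 0.12 in KO (adjusted p = 0.0196) and had -0.41 ± 0.12 in WT (adjusted p = 0.0556), and its other kept probe gave -1.1 in KO and -1.53 in WT.

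Cyp2j13 had levels of 3.42, 3.94 and 4.28 in KO IRI against 5.64, 5.11 and 5.50 in KO sham, and it fell in KO by 1.54 ± 0.34 (adjusted p = 0.028). In WT it had 3.64, 3.76 and 4.05 after IRI against 4.91, 4.95 and 3.68 after sham. The WT groups overlapped through WT sham replicate 3, and the difference of -0.69 was not called, whereas without that array it was -1.11 (adjusted p = 0.0296). Cyp2j11 fell by 0.93 ± 0.16 in KO (adjusted p = 0.0105) and by 0.58 ± 0.16 in WT (adjusted p = 0.0396), and Cyp2j8 fell in KO by 0.68 ± 0.15 (adjusted p = 0.0267) and had -0.47 in WT. Cyp2j6 was at -0.07 in KO and -0.01 in WT, while its other kept probe, which was not tested, gave -0.53 in KO and -0.40 in WT. Among the KO calls, those of Cyp2j5 and Cyp2j8 were lost without any 1 of 4 KO arrays and that of Cyp2j13 without any 1 of 5 (adjusted p 0.0536 to 0.106 for Cyp2j13). The WT call of Cyp2j11 was lost when any 1 of 10 arrays was left out (-0.60 to -0.42, adjusted p 0.0511 to 0.108).

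The genes that lie next to these enzymes in the pathway mostly did not pass the test. Of 13 electron partners and haem genes, Hmox1, which breaks haem down, rose by 2.25 in KO (adjusted p = 0.0316) and by 1.92 in WT (adjusted p = 0.0385), and Cyb5a, which passes electrons to P450, fell by 0.56 in KO (adjusted p = 0.0267). The other 11 were called in neither. Of 11 neighbours in eicosanoid synthesis none was called in KO and 3 were called in WT. There Ptgs2, the inducible cyclooxygenase, rose by 3.00 (adjusted p = 0.0123), and Ephx2, which hydrolyses the epoxides, rose by 0.51 (adjusted p = 0.0394). Tbxas1, which makes thromboxane and is itself a P450 enzyme outside the name rule, fell in WT by 1.73 (adjusted p = 0.0149). Of 31 regulators of P450 transcription, 1 was higher and 2 lower in KO, and 3 were lower in WT. The electron and haem genes were called at 15.4% in KO and 7.69% in WT, the eicosanoid genes at 0% and 27.3%. The regulators were called at 9.68% in each genotype, beside 6.16% of all genes in KO and 12.0% in WT. The glucocorticoid receptor gene Nr3c1 fell by 0.73 in KO (adjusted p = 0.0143) and by 0.54 in WT (adjusted p = 0.0289).

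Proximal tubule markers moved with the Cyp2c and Cyp2j genes. After IRI 9 of 23 were lower in KO and 6 of 23 in WT, and none was higher. These markers were lower at 39.1% in KO and 26.1% in WT, beside 4.05% and 5.90% of all genes. Their mean centred level was -0.35 to -0.13 in KO IRI against 0.46 to 0.63 in KO sham, and -0.57 to -0.25 in WT IRI against 0.06 to 0.27 in WT sham. In these bulk samples fewer cells of a type and less RNA per cell cannot be told apart, and the part of tubule content in the P450 falls was not tested. Markers of the thick limb and distal tubule fell too, 3 of 8 in each genotype (37.5%, beside 4.05% of all genes in KO and 5.90% in WT). The mean centred level of these 8 was -0.57 to -0.31 in KO IRI against 0.32 to 0.58 in KO sham, and -0.60 to -0.24 in WT IRI against 0.29 to 0.41 in WT sham. Of 8 androgen-dependent kidney genes, 4 fell and none rose in KO, and 2 fell and 1 rose in WT. The shares called were 50% in KO and 37.5% in WT, beside 6.16% and 12.0% of all genes. Slc7a13, a transporter of the straight proximal tubule, fell by 2.10 in KO (adjusted p = 0.00117) and by 1.27 in WT. Slc7a13 and Kap stand in the proximal tubule list as well.

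Cyp1a1, the best-known target of the aryl hydrocarbon receptor, fell in WT. Its level was -4.10, -4.42 and -4.29 in KO IRI against -3.31, -3.25 and -3.18 in KO sham, and -6.04, -3.76 and -4.03 in WT IRI against -2.45, -2.15 and -1.71 in WT sham. IRI lay below sham without overlap in both genotypes. In WT it fell by 2.51 ± 0.48 (5.69-fold lower, adjusted p = 0.0128), with WT IRI replicate 1 not well above background, and without that array by 1.79 (adjusted p = 0.00139). In KO the difference of -1.03 ± 0.48 was not called (adjusted p = 0.257), and the difference between the genotypes' responses, 1.48 ± 0.68, was not either (adjusted p = 0.511). Without WT IRI replicate 1 the same KO difference had an adjusted p of 0.00904. Of 5 other targets of this receptor only Nqo1 was called, and it was higher, by 1.1 in KO (adjusted p = 0.0134) and by 1.03 in WT (adjusted p = 0.0128).

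Other families gave few calls. Cyp2u1, a fatty acid hydroxylase, rose in WT (1.31 ± 0.33, adjusted p = 0.0294) and had 0.79 in KO, but its other kept probes gave -0.35 and -0.43 in WT. Its call was lost when 1 of 4 WT arrays was left out, namely sham replicates 1 and 2 and IRI replicates 1 and 3 (1.08 to 1.31, adjusted p 0.0675 to 0.11). Of the 7 Cyp4f genes, which hydroxylate leukotrienes and fatty acids, Cyp4f16 rose in WT (0.71 ± 0.14, adjusted p = 0.0139) and had 0.47 in KO. Cyp4f14 fell in KO by 1.27 ± 0.32 (adjusted p = 0.0431) and had -1.03 in WT. The Cyp4f16 call was lost without any 1 of 3 WT arrays (adjusted p 0.0513 to 0.0606) and the Cyp4f14 call without any 1 of 8 arrays (adjusted p 0.0599 to 0.14).

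No call was made after IRI for the ethanol-oxidising Cyp2e1 (-0.38 in KO and -0.12 in WT), the oxysterol hydroxylase Cyp7b1 (-0.82 and -0.35), the sterol hydroxylase Cyp27a1 (0.28 and -0.07) or the vitamin D hydroxylase Cyp2r1 (0.06 and 0.16). Cyp26b1, which breaks down retinoic acid, had 0.64 in KO and -0.42 in WT and was called in neither. Among 13 retinoid genes 2 were higher in KO, and 2 were higher and 3 lower in WT. The shares called were 15.4% in KO and 38.5% in WT, beside 6.16% and 12.0% of all genes. Aldh1a1, which makes retinoic acid, rose by 2.48 in KO (adjusted p = 0.0259) and by 1.89 in WT (adjusted p = 0.0474). The adrenal steroid hydroxylase Cyp21a1 had -0.03 in KO and -0.32 in WT.

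Between the sham groups, KO differed from WT in 8 of the 63 genes, 6 higher and 2 lower (12.7% called, against a background of 8.85%, of which 5.12% higher and 3.73% lower). The median difference of the 63 genes was 0.30, against 0.12 over all genes. The groups did not overlap in 24 higher and 7 lower genes (backgrounds of 30.6% and 12.2%). This contrast is that of the slides as well as that of the genotypes. The count was 14 without WT IRI replicate 1, and it was 2 to 4 when any 1 of the 6 sham arrays was left out.

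Cyp4f18, which in mouse neutrophils oxidises leukotriene B4, was lower in KO. Its level was -1.20, -0.96 and -1.36 in KO sham against 0.15, 0.29 and 0.51 in WT sham, with no overlap. The difference was -1.49 ± 0.20 (2.81-fold lower, adjusted p = 0.00391), and it stayed past the threshold under every alternative tried. The other 2 kept probes of Cyp4f18 gave -1.30 and -2.40. Cyp4f18 lies on chromosome 8 (probe at 74512381 to 74512440, mm9), while the 6 other Cyp4f genes past the filter lie within 433 kb of chromosome 17.

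Leukocyte markers were lower in KO between the sham groups as well. Of 10 neutrophil markers 3 were lower in KO and none higher, and their mean centred level was -1.88 to -0.90 in KO sham against -0.68 to 0.52 in WT sham. Of 11 macrophage markers 5 were lower, with -0.72 to -0.02 in KO sham against 0.72 to 0.81 in WT sham, and of 10 T and NK cell markers 5 were lower. The shares lower were 30% of neutrophil, 45.5% of macrophage and 50% of T and NK cell markers, beside 3.73% of all genes. After IRI the neutrophil markers were at -0.68 to 0.39 in KO and 1.66 to 2.19 in WT. Of these 10 markers 3 were lower in KO (30%, beside 1.02% of all genes). The macrophage markers were then at -0.49 to -0.04 in KO and -0.39 to 0.10 in WT, with overlap, and the T and NK cell markers at -1.63 to -1.20 in KO and -0.97 to -0.48 in WT, and none of either list was called. For IRI against sham, Cyp4f18 differed by 0.62 in KO and by 0.08 in WT and was called in neither. In that WT comparison 6 of 10 neutrophil markers were higher and 1 lower. Of 11 macrophage markers 1 was higher and 5 lower in WT, and 8 of 10 T and NK cell markers were lower. In KO 2 neutrophil markers were higher, 1 macrophage marker was higher and 1 lower, and no T and NK cell marker was called. For IRI against sham, 6.08% of all genes were higher and 5.90% lower in WT, and 2.10% were higher and 4.05% lower in KO. The part of leukocyte content in the Cyp4f18 difference was not tested.

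The Cyp2c near copies were higher in KO sham than in WT sham. Cyp2c67 had levels of -0.84, -0.70 and -1.08 in KO sham against -1.92, -1.91 and -2.77 in WT sham, a difference of 1.33 ± 0.27 (adjusted p = 0.0158). Cyp2c68 had -0.77, -0.63 and -0.91 in KO sham against -1.71, -1.74 and -2.6 in WT sham, a difference of 1.25 ± 0.26 (adjusted p = 0.0198). Cyp2c69 had -1.06, -0.83 and -1.30 in KO sham against -1.97, -1.97 and -2.94 in WT sham, a difference of 1.23 ± 0.30 (adjusted p = 0.0317). The groups did not overlap in any of the 3 genes. Without WT sham replicate 3 the differences of Cyp2c67 and Cyp2c69 were 1.04 (adjusted p = 0.034) and 0.91 (adjusted p = 0.0778). The call of Cyp2c67 was lost without KO sham replicate 1 (adjusted p = 0.0655), that of Cyp2c68 without any 1 of the 3 KO sham arrays (adjusted p 0.0565 to 0.0727) and that of Cyp2c69 without any 1 of 5 sham arrays (adjusted p 0.0531 to 0.104). Proximal tubule markers were also higher in KO sham in their mean level (0.46 to 0.63 against 0.06 to 0.27 in WT sham). Of these markers 2 of 23 were called (8.7%, beside 8.85% of all genes). Higher in KO sham were also 3 of 8 androgen-dependent genes (37.5%), led by Slco1a1 (2.48, adjusted p = 0.00401). The proximal tubule and androgen-dependent lists share Kap and Slc7a13, and the part of either list in the Cyp2c differences was not tested.

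Cyp4v3, the mouse counterpart of the human fatty acid hydroxylase CYP4V2, had -0.04, 0.15 and -0.04 in KO sham against 0.57, 0.55 and 0.81 in WT sham and was lower by 0.62 ± 0.17 in KO (log2 -0.62, adjusted p = 0.0459). Cyp4f39 was higher in KO (1.04 ± 0.22, adjusted p = 0.0189), as were Cyp4f17 (0.48 ± 0.12, adjusted p = 0.032) and Cyp2w1 (0.61 ± 0.17, adjusted p = 0.048). The Cyp4f39 probe was well above background on 3 KO sham arrays and only 2 WT sham arrays. The calls of this paragraph were fragile. That of Cyp4v3 was lost when any 1 of 8 arrays was left out (adjusted p 0.0596 to 0.153), that of Cyp2w1 with any 1 of 11 (adjusted p 0.0517 to 0.167), that of Cyp4f17 with any 1 of 6 (adjusted p 0.055 to 0.13) and that of Cyp4f39 with any 1 of 3 (adjusted p 0.0599 to 0.0804). Cyp1a1 had -1.14 (adjusted p = 0.177) and Cyp26b1 -1.19 (adjusted p = 0.0968), and when single arrays were left out both were called only without WT IRI replicate 1 (adjusted p 0.00501 and 0.0394).

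**Figure D4:**
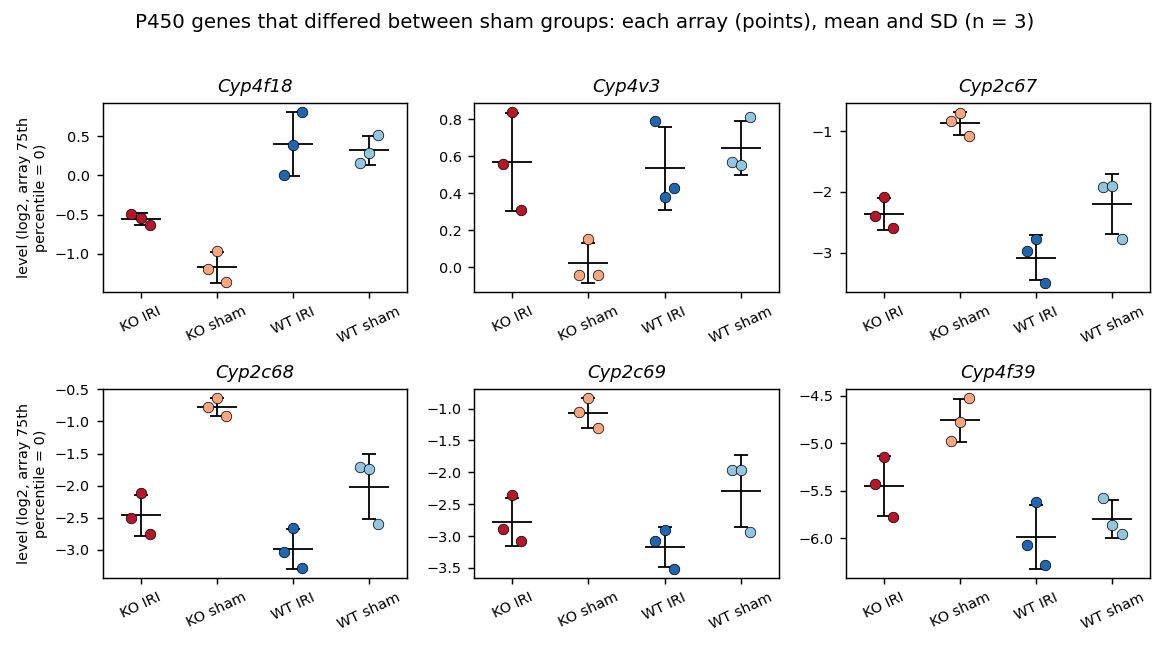
Level of 6 of the 8 P450 genes called between the sham groups on each array (points), with the group mean and SD (n = 3), for KO IRI, KO sham, WT IRI and WT sham from left to right. KO sham lies below WT sham for Cyp4f18 and Cyp4v3 and above it for Cyp2c67, Cyp2c68, Cyp2c69 and Cyp4f39.

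After IRI, KO and WT kidneys differed in 1 of the 63 genes (1.59%, against a background of 1.93%, of which 0.910% higher and 1.02% lower), and the median difference was 0.22 beside 0.04 over all genes. Without overlap 9 genes were higher and 2 lower (backgrounds of 12.3% and 9.45%). That gene was Cyp4f18, with levels of -0.49, -0.54 and -0.64 in KO IRI against 0.00, 0.39 and 0.81 in WT IRI and no overlap. It was lower by 0.96 ± 0.20 in KO (log2 -0.96, 1.94-fold lower, adjusted p = 0.0423), and the other 2 probes gave -0.82 and -1.01. The call was lost when any 1 of 10 arrays was left out (-0.99 to -0.75, adjusted p 0.0519 to 0.124). The next smallest adjusted p values belonged to Cyp2w1 (0.72, adjusted p = 0.058), Cyp27a1 (0.72, adjusted p = 0.0646) and Cyp4f15 (1.27, adjusted p = 0.0698), all higher in KO IRI. Cyp2b13 did not pass either (adjusted p = 0.119). It had entered the 63 genes only through the KO arrays, being well above background on 3 KO IRI arrays and on no WT IRI array.

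The difference between the IRI responses of KO and WT was called for none of the 63 genes by limma (background 0.0694%, or 18 of all genes, 0.0193% higher and 0.0501% lower), and 3 of the 63 had an unadjusted p under 0.05, as had 2536 of all 25947 genes. Those 3 were Cyp2d22 (0.51 ± 0.22, adjusted p = 0.496), Cyp4b1 (-0.41) and Cyp4v3 (0.66 ± 0.24, adjusted p = 0.419). Cyp2a22 and Cyp4a14 were called in KO only, but the difference of responses for Cyp2a22, 1.11 ± 0.73, had an adjusted p of 0.62. With gene-wise array weights 1 gene was called. At 3 animals per group these data do not show that the 2 genotypes respond alike or unlike in the P450 genes.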

How the data were processed

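Kidney total RNA was labelled with Cy3 and hybridised to 12 one-colour Agilent arrays, 3 per group. The deposited scanner files hold the processed signal, an intensity after background correction and spatial detrending by Agilent's Feature Extraction, per the file headers. A deposited table holds the authors' log2 values, with limma named in the submitters' processing notes. Each of its columns correlated with that array's log2 processed signal (r 0.999529 to 0.999993) and had a median of 5.71, so its scale is log2 with equal array medians and no centring per gene was found. The direction is that of signal.

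Control spots and outlier-flagged spots were left out, spots of a probe were averaged, and log2 intensity was reduced by the array's 75th percentile. A probe was kept when well above background on at least 3 arrays, and a gene was represented by its brightest kept probe. The model (limma 3.58.1, R 4.3.3) had a coefficient for each group over all 12 arrays and 8 residual degrees of freedom. Tests were two-sided, p-values were adjusted over all genes by Benjamini-Hochberg, and the threshold was 0.05. The fit was tested on simulated data. Other names were updated through RefSeq's GRCm38.p6 gene table, which matched 32994 of 56605 probes. Probe positions are those of the files (mm9).

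Genes named are a set list, up to 10 largest rises and 10 largest falls per comparison among called members, subfamilies of 3 or more by count and range, and up to 3 called members per list. A gene that this rule takes is not reported here. Some genes close to the threshold and the other members of the printed clusters were named after their values were seen. The members and lists were chosen with earlier results of these data known. Promoter windows were found for 70 of the 90 genes. The labels call the samples of a group independent, and the number of arrays limits the precision. Alternatives changed the normalization, the background correction, the dim-probe filter, the probe chosen, the arrays used and the blocks.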

Additional observations from a re-analysis of the deposited data

How the results depend on the processing

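The counts of P450 genes past the threshold depended on the processing, which were 19 for IRI in KO, 16 for IRI in WT, 8 between the sham groups, 1 between the IRI groups and 0 for the difference of responses in the fit reported. Leaving out each array in turn gave 8 to 28, 7 to 22, 2 to 14, 0 to 2 and 0. With only the compared arrays in the fit, 3 genes were called for IRI in WT, 13 between the sham groups and 0 between the IRI groups. With gene-wise array weights, used because the default estimate did not converge, the counts were 36, 39, 31, 4 and 1. Leaving out both WT IRI replicate 1 and WT sham replicate 3, chosen after seeing the data, gave 29 for IRI in KO, 13 between the sham groups and 2 between the IRI groups. Between the sham groups, scaling on the median gave 3 and no filter on dim probes gave 5. Between the IRI groups, no filter on dim probes, the percentile over probes well above background on all arrays and the mean over kept probes gave 0, and normexp gave 2. No estimate of a called gene changed sign, and the causes of these changes were not tested. With scaling on the median, the median of all genes for IRI in KO was 0.06, beside -0.08 in the fit reported.

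Samples of different groups share replicate numbers, but same-numbered samples correlated at -0.267 to 0.151 in their deviations from the group means, so the numbers do not pair the samples. With the replicate block 18, 17, 5, 0 and 0 genes were called, in the order of the first sentence. Of the called genes, 6 of 19, 3 of 16, 1 of 8 and 0 of 1 stayed past the threshold under every alternative. Each genotype lies on 1 slide, so a slide block cannot change the IRI comparisons and is no check of them. Signal over background limits 27 of the 90 genes, which were well above background on fewer than 3 arrays.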
